A study of Mus musculus with 18 samples.

Results

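The export of conjugates, phospholipid and drugs from the hepatocyte was followed here through 9 genes, taken by gene symbol and not by their values. They are Abcb1a, Abcb1b, Abcb4, Abcc2, Abcc3, Abcc4, Abcc6, Abcg2 and Atp8b1, and they were found as 9 of the 35441 genes in the deposited count table. All 9 passed the minimum of more than 100 reads summed over the livers, with 14533 genes tested in all. Bulk polyA RNA had been sequenced from 18 mouse livers in 6 groups of 3 mice.

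The study asked how lysosomal acid lipase deficiency, and its correction by gene transfer, altered hepatic transcription. Untreated wild-type mice (WT), untreated Lipa-/- mice and Lipa-/- mice given rAAV8.hAAT.LIPA were compared at 12 and 34 weeks post-injection, which the labels write as 3 and 8 months. In Lipa-/- mice, exon 4 of the lipase gene had been removed with a Cre driven by the CMV promoter, so the loss was not limited to the liver. The animals were males on the C57/BL6N background. The vector carried a human LIPA cDNA with an HA tag behind the hepatocyte-specific hAAT promoter, and it was given intravenously. All treated mice therefore carried the same deletion as the untreated Lipa-/- mice. No group received an empty vector, so vector and transgene cannot be told apart. The labels give neither dose nor age. Per the study's methods, most untreated Lipa-/- mice did not reach 34 weeks and were killed earlier at ethical endpoints, and the labels do not say when each mouse of that group was taken. Age, time since injection and late disease therefore cannot be told apart in the 34-week Lipa-/- values and in comparisons that use them. The labels of the 34-week libraries began with 22-106. Those of the 12-week libraries began with 22-132, except that of Lipa-/- mouse 5, which began with 23-004. What these prefixes stand for is not stated in the labels. Time and label prefix cannot be told apart.

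Each liver had 17527848 to 25833134 reads assigned to genes. The TMM factors, which correct for RNA composition, ranged from 0.587 to 1.69. At 12 weeks they were 0.809 to 0.924 in WT, 1.16 to 1.23 in Lipa-/- and 0.587 to 0.759 in treated livers. At 34 weeks they were 0.806 to 1.07, 1.37 to 1.69 and 0.957 to 1.07. A floor of 3 reads was worth 0.0946 to 0.291 CPM (reads scaled to a common library size, with the TMM factors), for counting error only. Murine Lipa was at 202 to 323 CPM in WT livers and at 16.7 to 37.0 CPM in the other livers. A gene count also takes reads from exons other than exon 4. Human LIPA was at 523 to 2746 CPM in treated livers. It was at 0 or 1 read in the other livers, except for 23 reads in WT mouse 2 at 34 weeks. None of the 9 hepatocyte markers was at 0 reads in a whole group.

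Bile is formed at the canalicular membrane of the hepatocyte, where ATP-driven pumps move solutes against their gradients. ABCB4 flops phosphatidylcholine into bile and ABCC2 exports conjugated bilirubin and glutathione conjugates. ABCG2 exports sulfated conjugates, urate and porphyrins, and the products of Abcb1a and Abcb1b are the multidrug P-glycoproteins of rodents. ATP8B1 is not an ABC protein but a P-type flippase that returns phosphatidylserine to the inner leaflet and keeps the canalicular membrane stable. The basolateral pumps ABCC3 and ABCC4 return conjugates and bile acids to blood, and both are known to rise in cholestasis. ABCC6 releases ATP from hepatocytes, a source of the mineralisation inhibitor pyrophosphate.

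In GRCm39, the build used by the authors, 3 of the genes lie side by side on the plus strand of chromosome 5. Abcb1a spans 8710022 to 8798575, Abcb1b spans 8847994 to 8916389 and Abcb4 spans 8943604 to 9011999. Gaps of 49.4 kb and 27.2 kb separate them. On other chromosomes lie Abcg2 (chromosome 6, 58561505 to 58672661, plus), Abcc6 (chromosome 7, 45616979 to 45679859, minus) and Abcc3 (chromosome 11, 94233874 to 94283823, minus). Abcc4 is on chromosome 14 (118720103 to 118943924, minus) and Abcc2 on chromosome 19 (43770631 to 43829179, plus). The GENCODE annotation, which is not the Ensembl cDNA set that the authors quantified against, gave 87 transcripts to Abcb1b and 7 to Abcb1a. Of the distinct 31-base words in Abcb1a transcripts, 20.0% also occurred in Abcb1b transcripts, and 5.35% of those of Abcb1b occurred in Abcb1a. The percent for Abcb1b is the smaller because its many transcripts held 22977 words, against 6145 for Abcb1a. Sharing in the authors' set was not measured. The division of reads between these paralogs is therefore less certain than for the other members, whose shared words with any of the other ABC genes were 2.62% for Abcb4 and at most 0.089% for the rest. Effects of this sharing on single values were not tested beyond summing the pair.

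RefSeq promoter sequence (GRCm38.p6) was matched for 6 of the 9 members in 9 entries, and not for Abcc3, Abcc6 and Atp8b1. The neighbours on chromosome 5 are shown because their mRNAs moved in opposite directions in Lipa-/- liver. Abcg2 is shown as the member called lower at both times. Abcc4 is not shown, though it was called higher at both times. Sequence runs 5′ to 3′ from 250 bases before the RefSeq start and stops where an annotated exon of the gene begins in GRCm39. The Abcb1a window reached no annotated exon, so its sequence runs to the RefSeq start. Capitals mark matches of the words named in the next paragraph, on either strand.
Abcb1a: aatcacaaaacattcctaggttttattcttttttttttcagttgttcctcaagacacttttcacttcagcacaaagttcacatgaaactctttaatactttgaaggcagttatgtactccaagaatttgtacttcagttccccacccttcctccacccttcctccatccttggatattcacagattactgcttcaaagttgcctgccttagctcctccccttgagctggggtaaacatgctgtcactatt
Abcb1b: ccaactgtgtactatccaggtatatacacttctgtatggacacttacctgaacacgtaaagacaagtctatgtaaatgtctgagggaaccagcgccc
Abcb4: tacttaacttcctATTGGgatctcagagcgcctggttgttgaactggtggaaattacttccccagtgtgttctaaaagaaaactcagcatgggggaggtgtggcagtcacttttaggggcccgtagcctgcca
Abcg2: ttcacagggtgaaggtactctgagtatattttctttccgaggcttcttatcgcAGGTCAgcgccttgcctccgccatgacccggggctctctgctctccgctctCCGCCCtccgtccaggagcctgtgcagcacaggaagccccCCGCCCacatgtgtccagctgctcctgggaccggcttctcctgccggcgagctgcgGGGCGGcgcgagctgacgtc
In GRCm38.p6 these are chr5:8566841-8567090, chr5:8797897-8797993, chr5:8893471-8893603 and chr6:58640296-58640515, all on the plus strand. Each full window of 250 bases had 1 exact match in GRCm39. The RefSeq start of Abcb1a lay 92931 bases from the annotated canonical start used in GRCm39, against 153 bases for Abcb1b, 117 for Abcb4 and 30 for Abcg2.

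Motif letters in the full windows of 250 bases differed between the neighbours. The words searched on both strands were TGACNNNGC (the core of the antioxidant response element), AGGTCA (the nuclear receptor core) and CCAAT as well as GGGCGG (the GC box) and TATAAA (the TATA box). Over all 32851 RefSeq promoters, they occurred in 10.2%, 14%, 33.8%, 32.7% and 12.4% of windows. The Abcb1a window held none of the 5 words and had 40.4% G and C. The Abcb1b window held CCAAT at 87 and 66 bases and GGGCGG at 48 bases before the start. Abcb4 held CCAAT at 237 bases and GGGCGG at 46 bases. The Abcg2 window printed above, with 67.6% G and C, held AGGTCA at 197 bases and GGGCGG at 4 places. TGACNNNGC was found in the Abcc2 window and in both Abcc4 windows. The matches named for Abcb1b, GGGCGG of Abcb4 and GGGCGG at 8 bases in Abcg2 lie past the start of the first annotated exon in their windows. So do the TGACNNNGC of Abcc2 and that of the Abcc4 window nearest the annotated start. None of these is in the printed sequence. No matches of different words overlapped. These letters are descriptions and were not tested as sites.

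Levels between genes were compared in TPM, which is scaled by transcript length as well as by library. In WT liver at 12 weeks, the most abundant were Abcb4 at 40.2 ± 15.0 TPM (SD, n = 3), Abcg2 at 39.3 ± 6.19 and Abcc3 at 36.4, from 23.0 to 54.1. Abcc2 was at 33.3 ± 17.3 TPM and Abcc6 at 29.1 ± 7.69. Neighbours among these 5 overlapped between livers. Atp8b1 followed at 4.47 ± 1.56 TPM, below Abcc6 in all livers. Abcb1b was at 0.416 ± 0.0883 TPM, Abcb1a at 0.273 ± 0.160 and Abcc4 at 0.147 ± 0.0181, and neighbours among these 3 overlapped. At 34 weeks in WT liver, the same 5 genes led, from Abcb4 at 71.5 ± 32.0 TPM to Abcc6 at 36.9 ± 12.3, again with overlap between neighbours. In reads per liver, Abcb1a, Abcb1b and Abcc4 had 3 to 210 over all 18 livers.

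In untreated Lipa-/- liver the order changed at its head. Abcc3 was first at 65.0 ± 13.7 TPM at 12 weeks and 73.2 ± 5.68 TPM at 34 weeks, and it did not overlap with Abcb4, the next gene, at either time. Abcg2, next to Abcb4 in WT at 12 weeks, was the fifth at both times, with 21.3 ± 5.16 TPM at 12 weeks and 12.3 to 21.1 TPM at 34 weeks. In treated Lipa-/- liver Abcb4 was first again by its mean, at 24.6 ± 7.60 TPM at 12 weeks and 57.4 ± 11.0 TPM at 34 weeks. Abcg2 and Abcc2 were next at the respective times, and both overlapped with Abcb4 between livers. In treated mouse 9 at 34 weeks, Abcc2 was at 85.5 TPM and Abcb4 at 69.5 TPM.

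**Figure D1:**
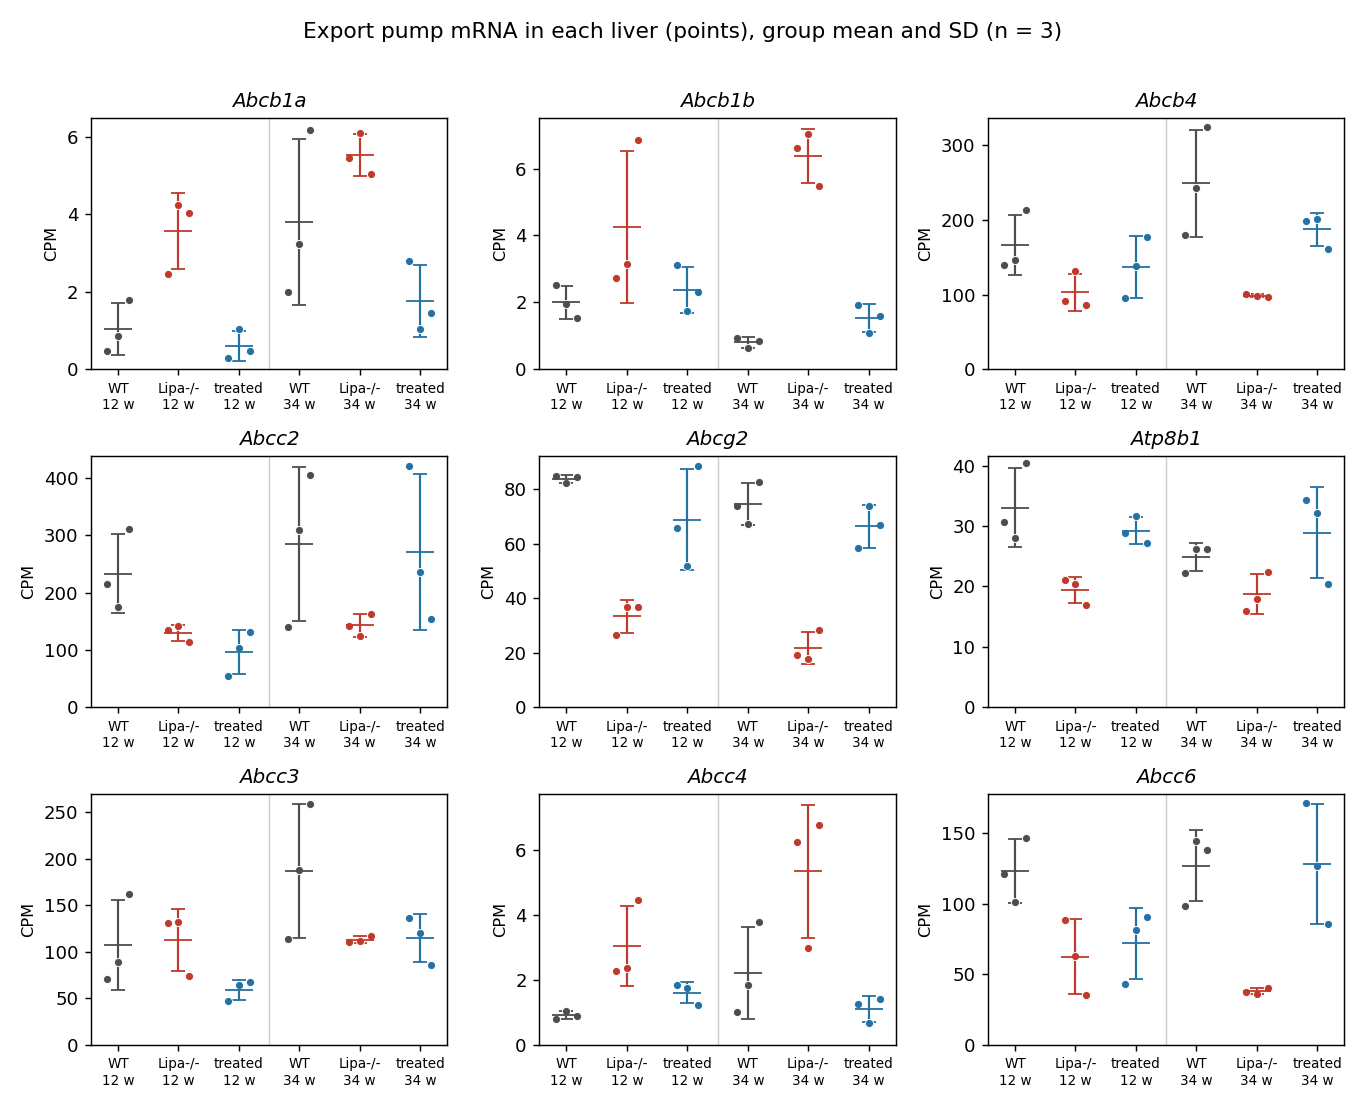
CPM (TMM-scaled, y axis from 0) of the 9 genes in each of 18 livers; points are mice, horizontal lines are group means and bars are SD (n = 3), with WT in grey, Lipa-/- in red and treated Lipa-/- in blue. Abcg2 lies between 17.5 and 36.9 CPM in untreated Lipa-/- livers and between 51.8 and 88.6 CPM in all others.

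Comparisons between groups used CPM and edgeR's quasi-likelihood test over all 18 livers, with Benjamini-Hochberg adjustment over the 14533 genes. A gene was called when its adjusted p was under 0.05 and its log2 fold change beyond 1 in either direction. Log2 fold changes are given with their standard error (SE). Changes given in TPM came from limma on log2(TPM + 0.5). The added 0.5 shrinks the changes of the scarce genes Abcb1a, Abcb1b and Abcc4. With 3 mice against 3, an exact permutation test of a single gene cannot go below 0.1, so p-values rest on the spread pooled by the model.

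In Lipa-/- liver at 12 weeks the P-glycoprotein genes and Abcc4 were higher than in WT, and Abcg2 was lower. These were 4 called members of 9, where 29.3% of all genes tested were called. Called higher were 3 members (20.2% of all genes) and called lower 1 (9.06%). At 34 weeks, 5 of 9 were called against 36.3% of all genes: 2 higher (20.5%) and 3 lower (15.7%). Abcb1b and Abcc4 were higher and Abcb4, Abcc6 and Abcg2 were lower. Without the threshold on size, 7 members passed at 12 weeks (39.2% of all genes) and 5 at 34 weeks (47.3%). The groups did not overlap in CPM for 8 members at 12 weeks (52.7% of all genes) and 4 at 34 weeks (60.3%). The median log2 fold change of the members was -0.69 at 12 weeks and -0.73 at 34 weeks, against 0.02 and -0.03 over all genes.

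Abcg2, the exporter of sulfated conjugates and porphyrins, was the member called lower at both times. At 12 weeks it measured 84.9, 82.2 and 84.6 CPM in WT livers and 26.3, 36.9 and 36.9 CPM in Lipa-/- livers. At 34 weeks the WT livers gave 74.0, 67.4 and 82.5 CPM and the Lipa-/- livers 19.0, 17.5 and 28.2 CPM. Every Lipa-/- liver was below every WT liver at both times. The log2 fold change was -1.33 ± 0.23 (SE; adjusted p = 0.000206) at 12 weeks and -1.79 ± 0.23 (adjusted p = 9.79e-06) at 34 weeks. Scaled by total counts or in TPM, the 12-week change kept its sign at -0.86 and -0.89 but was no longer beyond 1.

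Abcb1b, one of the rodent P-glycoprotein genes, had the largest rise of a member at 34 weeks. In WT livers it was at 2.52, 1.96 and 1.52 CPM at 12 weeks, and in Lipa-/- livers at 2.73, 3.15 and 6.87 CPM. The 34-week livers had 0.944, 0.631 and 0.856 CPM in WT and at 6.62, 7.03 and 5.48 CPM in Lipa-/-. At 34 weeks these were 16 to 22 reads per WT liver and 149 to 210 reads per Lipa-/- liver. The Lipa-/- livers were above all WT livers at both times, narrowly at 12 weeks. The log2 fold change was 1.08 ± 0.36 (adjusted p = 0.0239) at 12 weeks and 2.98 ± 0.39 (adjusted p = 1.1e-05) at 34 weeks. The 12-week call rested on mouse 9: without Lipa-/- mouse 9 the log2 fold change was 0.56 (adjusted p = 0.208). It was also lost without WT mouse 2 (1.07, adjusted p = 0.063), without WT mouse 3 (0.92, adjusted p = 0.0948) and with only the groups compared in the fit (1.08, adjusted p = 0.0764).

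Abcb1a, its neighbour and paralog, was at 0.482, 0.861 and 1.78 CPM in WT livers at 12 weeks. The Lipa-/- livers held 2.45, 4.23 and 4.04 CPM, all above WT. The difference was 1.77 ± 0.52 on the log2 scale (adjusted p = 0.0125), and without WT mouse 1 it was 1.44 (adjusted p = 0.0628). At 34 weeks the WT livers spread over 2.01, 3.23 and 6.19 CPM and overlapped the Lipa-/- livers at 5.46, 6.11 and 5.04 CPM. The log2 fold change of 0.53 ± 0.48 was then not called (adjusted p = 0.389), but in TPM it was, at 1.09 (adjusted p = 0.0053). With the reads of both paralogs summed to 1 feature, the log2 fold change was 1.36 at 12 weeks (adjusted p = 0.00498) and 1.36 at 34 weeks (adjusted p = 0.00341). The summed pair was thus higher at both times.

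Abcb4, the third gene of that locus and the phospholipid floppase, went the other way. It was at 140.1, 146 and 213 CPM in WT livers at 12 weeks and at 91.5, 131 and 86.2 CPM in Lipa-/- livers. At 34 weeks WT livers were at 180.0, 242 and 324 CPM and Lipa-/- livers at 100.5, 98.3 and 97 CPM. All Lipa-/- livers were below all WT livers at both times. The log2 fold change of -0.69 ± 0.27 at 12 weeks passed on p alone (adjusted p = 0.0475, and 0.563 with total counts). In TPM the 12-week change was only -0.13. The change of -1.33 ± 0.27 at 34 weeks was called (adjusted p = 0.000621). The 34-week value was -0.73 with total-count scaling (adjusted p = 0.058) and -0.50 in TPM (adjusted p = 0.235), so its size depended on the scaling. Within each liver, Abcb1b reads were 0.714 to 1.80% of Abcb4 reads in WT at 12 weeks and 2.40 to 7.97% in Lipa-/-. At 34 weeks, the range was 0.261 to 0.524% in WT and 5.65 to 7.16% in Lipa-/-. This ratio is free of library scaling, and the groups did not overlap at either time.

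Abcc4, the basolateral pump for bile acids and cyclic nucleotides, was scarce in WT liver. It was at 0.804, 1.05 and 0.890 CPM at 12 weeks in WT and at 2.27, 2.37 and 4.45 CPM in Lipa-/-, all above WT. The 34-week values were 1.00, 1.85 and 3.78 CPM in WT and 6.24, 2.98 and 6.76 CPM in Lipa-/-, where WT mouse 3 was above Lipa-/- mouse 5. Log2 fold changes were 1.72 ± 0.47 (adjusted p = 0.00838) and 1.25 ± 0.44 (adjusted p = 0.0281). The 34-week call of Abcc4 was lost without WT mouse 1 (0.92), WT mouse 2 (1.13), Lipa-/- mouse 4 (1.16) or Lipa-/- mouse 6 (1.05), with adjusted p from 0.079 to 0.111, and with only the groups compared in the fit (1.30, adjusted p = 0.0606).

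Abcc6, the ATP-releasing pump, was at 121, 101 and 147 CPM in WT livers at 12 weeks and at 88.6, 63.1 and 35.6 CPM in Lipa-/- livers. At 34 weeks it was at 98.3, 144 and 138 CPM in WT and at 37.2, 36.2 and 40.5 CPM in Lipa-/-. The Lipa-/- livers were lower without overlap at both times. The log2 fold change was -0.98 ± 0.33 at 12 weeks, which passed on p alone (adjusted p = 0.0273), and -1.74 ± 0.34 at 34 weeks (adjusted p = 0.000465). In TPM the 34-week change was -0.87 (adjusted p = 0.0878). Without WT mouse 2 the 12-week value was -1.10 and without Lipa-/- mouse 5 it was -1.31, both called. It was -0.52 with total counts (adjusted p = 0.292), -0.60 with edgeR's length offsets (adjusted p = 0.191) and -0.30 in TPM (adjusted p = 0.613). It did not pass on p alone without WT mouse 1 or 3 or without Lipa-/- mouse 8 or 9, where Abcc6 ran from -0.99 to -0.69 with adjusted p from 0.0558 to 0.121.

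The other 3 members were called at neither time. Among them Atp8b1 lies on the minus strand of chromosome 18 (64662038 to 64794338). Abcc2, the conjugate pump, was at 214, 175 and 311 CPM in WT and 134, 141 and 113 CPM in Lipa-/- at 12 weeks (log2 fold change -0.85 ± 0.40, adjusted p = 0.104). The later livers held 141, 309 and 406 CPM in WT and at 142, 124 and 162 CPM in Lipa-/-, with overlap through WT mouse 1 (-0.9997 ± 0.40, adjusted p = 0.0502). Without WT mouse 1 the 34-week value was -1.33 (adjusted p = 0.0109), and with edgeR's length offsets it was -1.18 (adjusted p = 0.0299). Other filters on low counts and DESeq2 with length offsets also called it, at -1.01 to -1.13. It was smaller without WT mouse 3 (-0.66, adjusted p = 0.227), with total counts (-0.42, adjusted p = 0.448) and in TPM (-0.37, adjusted p = 0.56). The 12-week value of Abcc2 was -0.40 with total counts and -0.11 in TPM. Atp8b1, the flippase, was at 28.0 to 40.4 CPM in WT and 16.9 to 21.0 CPM in Lipa-/- at 12 weeks. Its log2 fold change there was -0.77 ± 0.21 (adjusted p = 0.00867), under the size threshold, and -0.27 in TPM. At 34 weeks Atp8b1 gave -0.41 ± 0.21 (adjusted p = 0.125), and in TPM the sign was positive at 0.22.

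Abcc3, the basolateral conjugate pump, differed by scale. In CPM it was at 71.2, 88.6 and 162 in WT and at 131, 132 and 74.0 in Lipa-/- at 12 weeks (0.07 ± 0.33, adjusted p = 0.892). The later values were 114, 188 and 258 CPM in WT and at 110.4, 111 and 117 CPM in Lipa-/- (-0.73 ± 0.33, adjusted p = 0.0806). In TPM the log2 difference was 0.89 at 12 weeks (limma, adjusted p = 0.0402, under the size threshold) and 0.21 at 34 weeks (adjusted p = 0.614), so its direction at 34 weeks turned with the unit. Relative to the other members within the same liver, however, Abcc3 held a larger part of the mRNA.

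**Figure D2:**
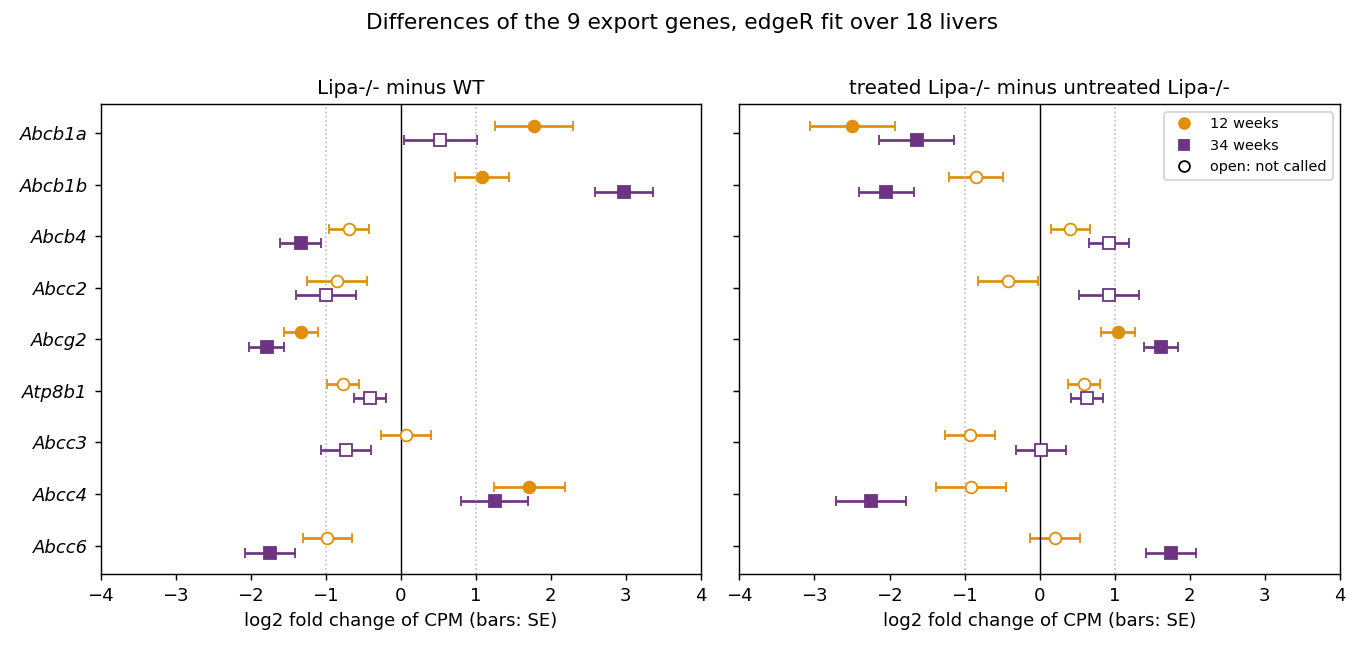
Log2 fold changes of CPM (x axis, bars are SE) for Lipa-/- minus WT (left) and treated minus untreated Lipa-/- (right); circles are 12 weeks, squares 34 weeks, filled symbols were called and dotted lines mark a log2 change of 1. Abcb1b reached 2.98 and Abcg2 -1.79 in Lipa-/- at 34 weeks, and treated livers differed from untreated ones by -2.05 and 1.62.

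Shares within a liver do not depend on library scaling. Of the summed TPM of the 9 genes, Abcc3 made 14.9 to 22.6% in WT livers at 12 weeks and 33.2 to 36.2% in Lipa-/- livers. At 34 weeks it made 23.6 to 25.1% in WT and 33.2 to 38.1% in Lipa-/-. In treated livers its share was 18.4 to 22.6% at 12 weeks and 16.1 to 19.5% at 34 weeks. The Lipa-/- livers were above all other livers. Abcg2 had 17.96 to 25.1% in WT and 7.61 to 16.8% in Lipa-/- at 12 weeks, and 12.8 to 19.5% against 6.83 to 10.4% at 34 weeks. Abcb1a, Abcb1b and Abcc4 each held at most 2.42% in any liver. The summed TPM ran from 148 to 204 in Lipa-/- at 12 weeks, within the WT range of 142 to 254.

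**Figure D3:**
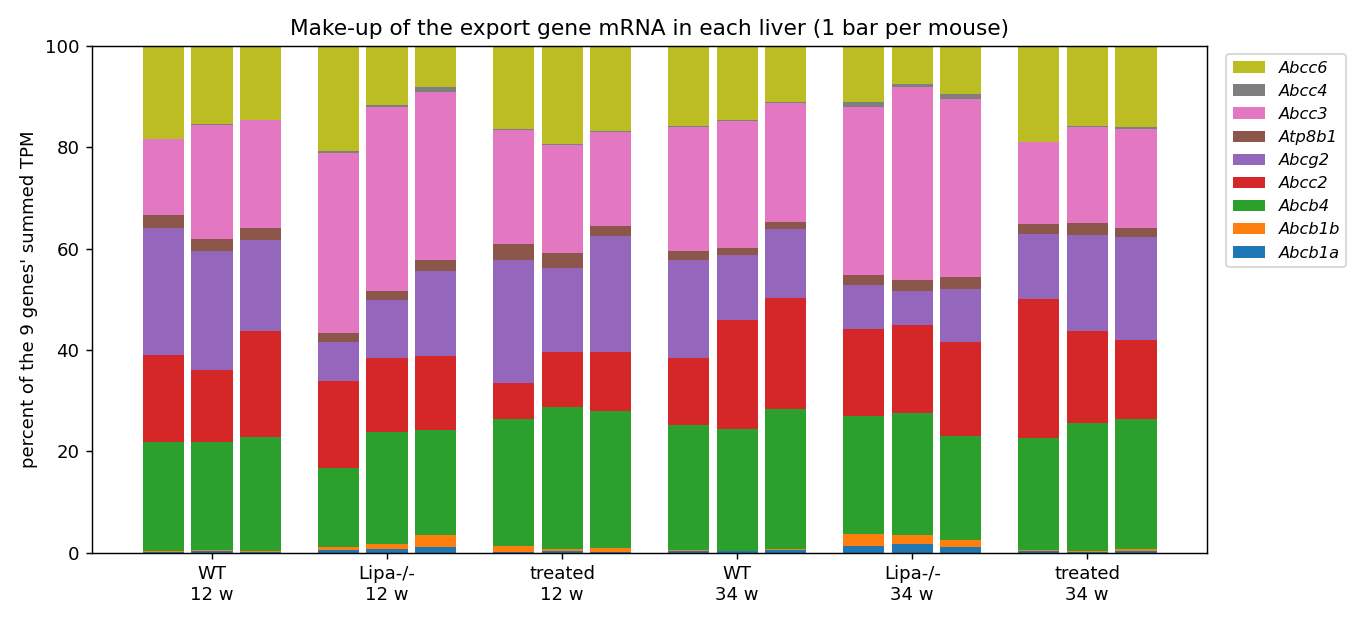
Percent of the summed TPM of the 9 genes held by each gene (y axis), 1 bar per mouse, grouped by genotype, treatment and weeks. The Abcc3 segment is 33.2 to 38.1% in untreated Lipa-/- livers and at most 25.1% in the other livers.

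Set against Abcc3 in the same liver, the canalicular genes Abcb4 and Abcg2 and the basolateral gene Abcc6 were lower in Lipa-/- mice. The TPM ratio of Abcb4 to Abcc3 was 0.939 to 1.44 in WT and 0.439 to 0.625 in Lipa-/- at 12 weeks, and 0.958 to 1.18 against 0.586 to 0.702 at 34 weeks. That of Abcg2 was 0.845 to 1.69 against 0.214 to 0.507 at 12 weeks, and 0.512 to 0.793 against 0.179 to 0.297 at 34 weeks. That of Abcc6 was 0.681 to 1.23 against 0.247 to 0.585, and 0.468 to 0.644 against 0.200 to 0.335. The groups did not overlap in any of these 3 ratios. For Abcc2, the conjugate pump, the ratio was taken in reads, which transcript length does not scale, and not in TPM. In reads the groups overlapped at 34 weeks, and this overlap holds for reads only. There Abcc3 reads were 61.0 to 81.2% of Abcc2 reads in WT and 72.1 to 89.96% in Lipa-/-, against 33.2 to 52.2% and 65.7 to 97.4% at 12 weeks. The ratios were chosen after the values were seen and were not tested. In treated livers the ratios were 1.11 to 1.48, 0.774 to 1.24 and 0.727 to 0.911 at 12 weeks for Abcb4, Abcg2 and Abcc6, above all untreated Lipa-/- livers.

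**Figure D4:**
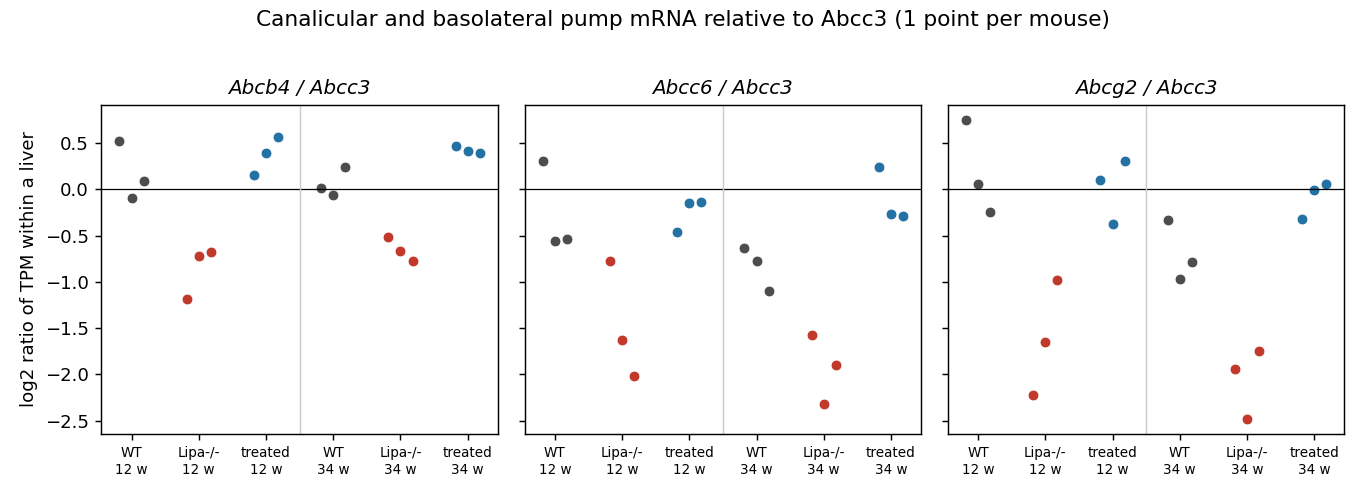
Log2 ratio of TPM within a liver (y axis) of Abcb4, Abcc6 and Abcg2 to Abcc3, 1 point per mouse, with WT in grey, Lipa-/- in red and treated Lipa-/- in blue. Untreated Lipa-/- livers lie from -1.19 to -0.51 for Abcb4 and from -2.48 to -0.98 for Abcg2, below the WT and treated livers of the same time.

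Markers of cell types also differed between Lipa-/- and WT livers. The summed CPM of 9 hepatocyte markers was 75395 to 93746 in WT and 45514 to 63088 in Lipa-/- at 12 weeks, and 65167 to 89937 against 26988 to 53489 at 34 weeks. None was called higher, and 3 and 6 were called lower. Of 10 cholangiocyte markers (9 tested), 6 were called higher at 12 weeks and 8 at 34 weeks, and their summed CPM rose from 38.9 to 64.6 in WT to 471 to 2246 in Lipa-/- at 12 weeks, and from 48.7 to 65.6 to 1036 to 1817 at 34 weeks. Macrophage markers were higher for 9 and 8 of 10 (1 was lower at 34 weeks), at 145 to 337 CPM in WT and 4345 to 7829 in Lipa-/- at 12 weeks, and at 249 to 476 against 3456 to 6213 at 34 weeks. For stellate cells and fibroblasts 6 and 7 of 10 were higher and 1 and 2 lower (137 to 241 against 667 to 1135 CPM, and 224 to 261 against 1073 to 1983). Neutrophil markers were higher for 10 and 8 of 10 (2.47 to 3.06 against 148 to 1729 CPM, and 1.95 to 7.20 against 128 to 310). The 12-week highs of 2246 CPM for cholangiocyte and 1729 CPM for neutrophil markers were both from Lipa-/- mouse 9. Lipa-/- mice 5 and 8 had 471 and 624 CPM for cholangiocyte and 205 and 148 CPM for neutrophil markers. Lymphocyte markers were higher for 4 and 4 of 10, with 1 lower at 34 weeks (4.24 to 8.52 against 12.0 to 17.8 CPM, and 4.24 to 11.4 against 8.75 to 21.1). Sinusoidal endothelium had 2 higher and 4 lower at 12 weeks and 3 higher and 4 lower at 34 weeks (223 to 269 against 189 to 204 CPM, and 244 to 286 against 235 to 316). Among the neutrophil markers, those at 0 reads in all WT livers of a time were Ly6g and Camp at both times and Ngp at 12 weeks.

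Fewer hepatocytes and less pump mRNA per hepatocyte cannot be told apart in bulk liver. Abcb1b, Abcc3 and Abcc4 are also expressed outside hepatocytes. The part of cell composition in the changes of the 9 genes was not tested.

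Treated Lipa-/- livers were then compared with untreated ones. At 12 weeks 2 of 9 members were called, against 41.5% of all genes. Of these, 1 was higher (16.2% of all genes) and 1 lower (25.3%), and 5 did not overlap (59.3% of all genes). At 34 weeks 5 of 9 were called (31.5%), with 2 higher (12.8%) and 3 lower (18.6%), and 6 did not overlap (55.9%). These comparisons share the untreated Lipa-/- livers with the comparison to WT, so their values are given side by side and not correlated.

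Cell type markers moved with treatment as well. Of the 9 hepatocyte markers tested, 5 were called higher in treated livers at each time and 1 lower at 12 weeks, and their summed CPM was 73674 to 121390 at 12 weeks and 60583 to 87320 at 34 weeks. Cholangiocyte markers were lower for 6 and 8 of 9, at 57.8 to 66.4 and 66.2 to 102 CPM. Macrophage markers were lower for 8 of 10 at each time and higher for 1 at 12 weeks, at 939 to 2724 and 362 to 936 CPM, so that all treated livers of 12 weeks lay above the WT livers. For stellate cells and fibroblasts 4 and 7 of 10 were lower and 1 and 2 higher, at 386 to 1001 and 239 to 286 CPM. Neutrophil markers were lower for 8 and 1 of 10, at 7.74 to 70.9 and 2.84 to 825 CPM. At 34 weeks treated mouse 12 alone had 825 CPM, against 5.37 and 2.84 CPM in treated mice 9 and 11. Lymphocyte markers were higher for 3 and 1 of 10, at 17.7 to 23.7 and 11.9 to 21.7 CPM. Sinusoidal endothelium had 3 higher and 3 lower at 12 weeks and 2 higher and 3 lower at 34 weeks, at 181 to 275 and 166 to 234 CPM. The part of these changes in the values of the 9 genes was not tested.

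Abcg2 was at 65.9, 51.8 and 88.6 CPM in treated livers at 12 weeks and at 58.4, 74.0 and 66.7 CPM at 34 weeks. Each was above all untreated Lipa-/- livers of its time. The differences from untreated were 1.04 ± 0.23 (adjusted p = 0.00119) and 1.62 ± 0.23 (adjusted p = 3.4e-05) on the log2 scale. The 12-week value fell with scaling, to 0.15 with total counts and to -0.16 in TPM, where it turned. With upper-quartile scaling, edgeR's length offsets and DESeq2 with length offsets it kept its sign, but the call was lost. Leaving out Lipa-/- mouse 5 gave 0.90 and leaving out treated mouse 12 gave 0.79, both below the size threshold. At 34 weeks all scalings kept the call of Abcg2, from 1.08 to 1.71.

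Abcb1a was lower in treated livers at both times. It had 0.291, 1.03 and 0.460 CPM at 12 weeks, which were 3, 19 and 6 reads, and 2.80, 1.04 and 1.44 CPM at 34 weeks. All were below the untreated Lipa-/- livers. The log2 differences were -2.49 ± 0.56 (adjusted p = 0.00164) and -1.64 ± 0.50 (adjusted p = 0.0147). Leaving out treated mouse 11 at 34 weeks gave -1.38 (adjusted p = 0.0697). Abcb1b was at 3.11, 1.74 and 2.30 CPM in treated livers at 12 weeks (-0.85 ± 0.36, adjusted p = 0.058). This was called without Lipa-/- mouse 5 (-1.09), Lipa-/- mouse 8 (-1.02) or treated mouse 10 (-1.11), and for Abcb1b also with total counts (-1.75) and in TPM (-1.07). It was smaller without Lipa-/- mouse 9 (-0.32, adjusted p = 0.436), with edgeR's length offsets (-0.49, adjusted p = 0.333) and with DESeq2 with length offsets (-0.46, adjusted p = 0.38). The 34-week values were 1.91, 1.09 and 1.60 CPM (-2.05 ± 0.37, adjusted p = 0.000287). With the paralogs summed the differences were called at both times (adjusted p = 0.0035 and 0.00043), at -1.85 at 34 weeks.

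Abcc4 had 1.85, 1.74 and 1.23 CPM in treated livers at 12 weeks (-0.91 ± 0.46, adjusted p = 0.105, and called with total counts at -1.78) and 1.26, 0.656 and 1.40 CPM at 34 weeks (-2.25 ± 0.47, adjusted p = 0.000972). All lay below the untreated Lipa-/- livers, though the earlier difference was not called. Abcc6 had 43.0, 81.6 and 90.8 CPM at 12 weeks (0.20 ± 0.33, adjusted p = 0.619), where it overlapped with the untreated livers. Its 34-week values of 171, 127 and 85.9 CPM were above all of them (1.75 ± 0.34, adjusted p = 0.000556). In TPM the 34-week change was 1.02 (adjusted p = 0.0536), and at 12 weeks the sign was negative with total counts, at -0.65.

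Abcb4 at 95.3, 138 and 177 CPM overlapped with the untreated livers at 12 weeks (0.41 ± 0.26, adjusted p = 0.198, and -0.56 in TPM). The 34-week values of 199, 201 and 161 CPM were above all untreated livers, and passed on p alone (0.92 ± 0.27, adjusted p = 0.0103). Abcc2 was at 54.8, 104 and 130 CPM at 12 weeks (-0.42 ± 0.40, adjusted p = 0.38, and called with total counts at -1.28) and at 420.5, 236 and 154 CPM at 34 weeks (0.92 ± 0.40, adjusted p = 0.0765). Without treated mouse 12 the 34-week value of Abcc2 was 1.18 (adjusted p = 0.0299). Without treated mouse 9 it was 0.45 (adjusted p = 0.405), with total counts 0.39 (adjusted p = 0.501) and in TPM 0.33 (adjusted p = 0.633). Abcc3 was at 46.8, 63.9 and 66.9 CPM at 12 weeks, below all untreated livers, and its difference of -0.92 ± 0.33 passed on p alone (adjusted p = 0.0274). Abcc3 was called there without Lipa-/- mouse 9 (-1.15) or treated mouse 12 (-1.05), and with total counts (-1.78) or in TPM (-1.77). The 34-week values were 136, 121 and 86.0 CPM (0.02 ± 0.33, adjusted p = 0.972, and -0.78 in TPM). Atp8b1 gave 0.59 ± 0.21 (adjusted p = 0.0273) and 0.63 ± 0.21 (adjusted p = 0.0256), both under the size threshold, and the 12-week sign was negative in TPM at -0.45.

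Treated livers were also set against WT. At 12 weeks, 1 of 9 members was called where 25.5% of all genes were, and 4 did not overlap (52.5% of all genes). The called member was Abcc2, at 54.8 to 130 CPM in treated livers against 175 to 311 in WT. Its log2 fold change was -1.28 ± 0.40 (adjusted p = 0.0233). The call was lost without WT mouse 3 (-1.01, adjusted p = 0.107) or treated mouse 10 (-1.06, adjusted p = 0.0857). With edgeR's length offsets Abcb1b was called as well, at 1.36 (adjusted p = 0.0244), against 0.24 ± 0.37 without them and -0.18 with total counts. In TPM Abcg2 was called at -1.05, against -0.29 ± 0.22. Scaled by total counts, Abcc3 at -1.27 and Abcc6 at -1.16 were called, against -0.86 ± 0.33 (adjusted p = 0.0528) and -0.77 ± 0.33 (adjusted p = 0.0749). Those calls were also made without treated mouse 12, at -1.02 and -1.05, and for Abcc3 without WT mouse 1, at -1.08.

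At 34 weeks no member differed from WT by the test, where 0.220% of all genes were called. Of the members, 4 had an unadjusted p under 0.05, and DESeq2 with length offsets also called none. Abcb1b alone did not overlap with WT (8.89% of all genes), at 1.09 to 1.91 CPM in treated livers against 0.631 to 0.944 CPM. Its log2 fold change was 0.93 ± 0.39 (adjusted p = 0.735). Abcg2 differed by -0.17 ± 0.22 (adjusted p = 0.975), Abcc6 by 0.01 ± 0.33 (adjusted p = 1) and Abcb4 by -0.41 ± 0.26 (adjusted p = 0.957). Abcb1a at -1.11 ± 0.50 (adjusted p = 0.828) and Abcc4 at -0.996 ± 0.46 (adjusted p = 0.851) had larger errors.

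Between time points, no member was called in WT (0.323% of all genes) or untreated Lipa-/- livers (0.495%). In WT 5 members and in Lipa-/- 2 members had an unadjusted p under 0.05, and DESeq2 with length offsets made no call in either. In treated livers 2 were called, where 32.0% of all genes were. Abcc2 rose by 1.49 ± 0.41 (adjusted p = 0.00804) and Abcb1a by 1.49 ± 0.57 (adjusted p = 0.0425). With the mouse number as a replicate block, the values were 0.71 (adjusted p = 0.272) and 0.74 (adjusted p = 0.34). Livers were taken at sacrifice, so equal numbers at 12 and 34 weeks were different mice. This block therefore cannot test whether the calls hold. Without treated mouse 9 of the 34-week group, the values of Abcc2 and Abcb1a were 1.02 (adjusted p = 0.0634) and 0.98 (adjusted p = 0.218). For Abcb1a the call was also lost without mouse 10 (1.24) or mouse 12 (1.35) of the 12-week group, and with the paralogs summed (0.16). It was lost too with edgeR's length offsets (0.95), DESeq2 with length offsets (0.91), only the groups compared in the fit (1.51, adjusted p = 0.0843) and in TPM (0.58). Abcb1a averaged 0.129 and 0.452 TPM in treated livers at 12 and 34 weeks. Both lie below the 0.5 added before the log, which shrinks the TPM value. Abcc3 was at 0.95 ± 0.33 (adjusted p = 0.0293), under the size threshold, and Abcc6 at 0.83 ± 0.33 (adjusted p = 0.0504). Both were called without treated mouse 12 of the 12-week group (1.08 and 1.07) or of the 34-week group (1.15 and 1.09).

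The test of the difference between times did not call any member. For Lipa-/- against WT, 0.0619% of all genes passed, and 1 member had an unadjusted p under 0.05. Abcb1b had the largest such difference, at 1.89 ± 0.52 (adjusted p = 0.191). For treated against WT, 18.4% of all genes passed and 2 members had an unadjusted p under 0.05. Abcc4 there gave -1.80 ± 0.67 (adjusted p = 0.067) and Abcc2 a value that was not called (adjusted p = 0.131). Without treated mouse 12 of the 34-week group, Abcc2 was called at 1.55 (adjusted p = 0.0485). A change called at 1 time only was therefore not shown to differ between times.

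The scaling of libraries moved most of these comparisons. Against the TMM values, total-count scaling moved the median gene by 0.47 in Lipa-/- against WT at 12 weeks and by 0.63 at 34 weeks, and TPM moved it by 0.35 and 0.57. Treated against untreated moved by -0.87 and -0.54 with total counts and by -0.64 and -0.48 in TPM. Treated against WT moved by -0.39 and -0.38 at 12 weeks. The share of higher genes among those called in Lipa-/- against WT was 69.1% at 12 weeks and 56.6% at 34 weeks, against 87.2% and 81.8% with total counts and 86.4% and 82.9% in TPM. For treated against untreated it was 39.0% and 40.8%, against 8.92% and 18.5% with total counts and 6.07% and 18.1% in TPM. For treated against WT at 12 weeks it was 53.1%, against 24.4% and 13.6%. For treated livers over time it was 54.7%, against 87.8% and 93.2%. Where few genes were called, the share moved from 59.4 to 70.8% for treated against WT at 34 weeks with total counts, and from 6.94 to 90.6% for Lipa-/- livers over time in TPM. For the difference between times it moved from 46.6 to 81.3% in treated against WT with total counts and to 88.5% in TPM, and from 33.3 to 69.8% in Lipa-/- against WT in TPM.

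Other transporters and their partners were described from a list of 20 genes, all tested. In Lipa-/- against WT, 5 were higher and 3 lower at 12 weeks, and 3 higher and 7 lower at 34 weeks, with medians of 0.00 and -0.32 against 0.02 and -0.03 over all genes. Abcb11, the bile salt export pump, fell from 741 ± 147 to 150.3 ± 12.2 CPM at 12 weeks (-2.30 ± 0.27, adjusted p = 4.89e-06) and from 612 ± 94.8 to 87.3 ± 23.8 CPM at 34 weeks (-2.81 ± 0.27, adjusted p = 6.21e-07). Abcc1, the glutathione conjugate pump of many non-hepatocyte cells, rose from 0.814 ± 0.169 to 8.32 ± 0.476 CPM at 12 weeks (3.34 ± 0.32, adjusted p = 7.82e-07). Abcc5, a cyclic nucleotide and conjugate pump, rose by 3.27 ± 0.38 (adjusted p = 4.74e-06). At 34 weeks the changes of Abcc1 and Abcc5 were 2.75 ± 0.30 and 3.12 ± 0.37. Tmem30a, the partner subunit of ATP8B1, was named for that role with its values known. It was at -0.93 ± 0.27 at 12 weeks (adjusted p = 0.0127, under the size threshold) and was called at 34 weeks (-1.32 ± 0.28, adjusted p = 0.000885).

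In treated against untreated livers, 3 of the 20 were higher and 7 lower at 12 weeks, and 3 higher and 4 lower at 34 weeks. Abcb11 was higher by 2.19 ± 0.27 and 2.83 ± 0.27 and Abcc1 lower, at -2.83 ± 0.32 and -2.53 ± 0.30. Against WT, treated livers differed in 2 higher and 2 lower genes of the 20 at 12 weeks and in none at 34 weeks.

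Of 42 other ABC genes, 32 were tested. In Lipa-/- against WT, 7 were higher and 6 lower at 12 weeks, and 6 and 6 at 34 weeks. Abcg1, a cholesterol exporter of macrophages among other cells, rose from 2.54 ± 0.202 to 39.3 ± 6.29 CPM at 12 weeks (3.95 ± 0.24, adjusted p = 1.7e-08). Abcd2, a peroxisomal fatty acid transporter, rose from 1.11 ± 0.683 to 24.6 ± 4.62 CPM at 12 weeks (4.46 ± 0.86, adjusted p = 0.000586). At 34 weeks Abcd2 was at 24.8 ± 14.3 CPM in WT and 22.4 ± 0.611 CPM in Lipa-/- (-0.15 ± 0.70). In treated against untreated livers 5 were higher and 10 lower at 12 weeks, and 7 and 6 at 34 weeks. In treated against WT, 3 were higher and 4 lower at 12 weeks and none passed at 34 weeks.

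Among 14 transcription factors known to act on transporter genes, none was higher in Lipa-/- against WT and 1 was lower at 12 weeks and 5 at 34 weeks. Ppara, the fatty acid sensor, was lower at both times, at -1.42 ± 0.35 (adjusted p = 0.00371) and -1.98 ± 0.35 (adjusted p = 0.000202). Nr1i3, the xenobiotic receptor CAR, and Nr0b2, the bile acid responsive repressor SHP, were called lower at 34 weeks, at -1.93 ± 0.39 and -1.75 ± 0.66, against -0.21 and -0.96 at 12 weeks. The test of the difference between times was run over all genes tested, but its values for Nr1i3 and Nr0b2 are not given here. Nr1h4, the bile acid receptor FXR, and Nfe2l2, the factor NRF2, were named for their roles with their values known. Nr1h4 was at -0.52 at 12 weeks and was called at 34 weeks (-1.63 ± 0.22), and Nfe2l2 was at 0.24 and -0.36, not called. In treated against untreated livers, 3 were higher and 1 lower at 12 weeks, and 6 were higher at 34 weeks. Against WT, 1 was higher and 3 lower at 12 weeks and none passed at 34 weeks.

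Known targets of the xenobiotic receptors and of NRF2 were listed beside them. Of 9 CAR and PXR targets, 2 were higher and 4 lower at 12 weeks and 6 were lower at 34 weeks in Lipa-/- against WT. Cyp2c29 was at -3.79 and -4.78 and Cyp2c37 at -3.01 and -4.49 on the log2 scale. Cyp2b10, the classical CAR target, had 22 to 57 reads per WT liver and 0 to 5 per Lipa-/- liver at 12 weeks. At 34 weeks it had 55 to 160 reads per WT liver and 0 in each Lipa-/- liver. Of 14 NRF2 targets, 5 were higher and 2 lower at 12 weeks and 4 and 4 at 34 weeks. Slc7a11, the cystine transporter, rose at both times, by 4.37 ± 0.52 at 34 weeks, and Cbr3, a carbonyl reductase, by 3.51 ± 0.68 and 2.07 ± 0.62. Me1, the malic enzyme, went the other way, at -3.71 ± 0.42 and -4.64 ± 0.44.

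After treatment, 4 of the 9 CAR and PXR targets were higher and 1 lower than in untreated livers at 12 weeks, and 5 higher and 1 lower at 34 weeks. For NRF2 targets it was 2 higher and 5 lower, then 3 higher and 4 lower. Against WT, the first list had 1 higher and 2 lower at 12 weeks and the second 1 and 1, and neither had any at 34 weeks.

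Genes with the most similar course over the 18 livers were sought by the root mean square difference of centred log2 CPM, among 12590 tested genes with at least 1 CPM on average. For Abcg2 they were Etnk2 (0.164), an ethanolamine kinase, and Pdhb (0.171), a subunit of pyruvate dehydrogenase. Abcb4 was nearest to Pdha1 (0.154), another subunit of that enzyme, and to Sec23a (0.167), a coat protein of the secretory pathway. Abcc6 was nearest to Sec16b (0.177) and Pigr (0.217), and Abcc2 to Ece1 (0.177) and Gbf1 (0.189). For the scarce genes the distances were larger. They were 0.394 for Abcb1b to Cldn7, a tight junction protein of epithelia, and 0.426 to Itih5. Abcc4 was at 0.452 from Lig1 and 0.456 from Tmem43, and Abcb1a at 0.494 from Abhd2 and 0.525 from Pik3ap1. For scale, the SD of log2 CPM over the livers was 0.772 for Abcg2, 0.551 for Abcb4 and 1.00 for Abcb1b. Among the members themselves, the closest pair was Abcb4 and Abcc6 (0.410), followed by Abcb4 and Atp8b1 (0.443). These distances are descriptions over livers that share their groups.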

How the data were processed

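Liver polyA RNA of 18 mice was sequenced in paired ends. Per the study's methods, the authors quantified reads against GRCm39 Ensembl cDNA with Salmon and summed transcripts to genes with tximport. The deposited values were expected counts (19.4% of values not whole, rounded here), TPM and effective lengths. The deposited DESeq2 table of the authors' own comparisons was not used. The submitters' processing notes name R 4.3.0 and DESeq2 1.40.1.

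Groups were taken from the labels. Genes with more than 100 reads in total were fitted with TMM and edgeR 4.0.16 (quasi-likelihood, R 4.3.3) as 6 group means, with Benjamini-Hochberg adjustment over 14533 genes. Untested genes held at most 0.0975% of a library's reads. Alternatives used limma 3.58.1 on log2(TPM + 0.5), DESeq2 1.42.0 with length offsets, other scalings and filters, edgeR with length offsets, and each mouse left out. Scripts were tested on simulated data. Each replicate is a separate mouse per the labels. Replicate counts differed by more than sampling noise within all groups. Mouse numbers did not pair the times: same-number correlations of deviations in WT were 0.08, -0.24 and 0.46. Named were all members, the 3 most changed called genes of each list, and the 2 nearest genes of each member called against WT. The members and lists were chosen with earlier results of these data known. Promoters and motifs came from RefSeq, and positions from GENCODE on GRCm39.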

Additional observations from a re-analysis of the deposited data

How the results depend on the processing

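Of 1642 member values under alternatives, 1449 kept direction and side of the threshold, 36 lost the call, 53 gained it and 104 had the opposite sign. In 2 of the 104 a call was involved, both for Abcg2 in TPM: a call lost at -0.16 in treated against untreated livers at 12 weeks and a call gained at 1.07 in treated livers over time. The other 102 were called neither before nor after, and their values are at the end. The number of members called is given below. In Lipa-/- against WT at 12 weeks it was 4, and 7 on adjusted p alone. In treated against WT at 12 weeks it was 1, with 3 for total counts and 2 each for length offsets, DESeq2 with length offsets and limma on TPM. In treated against untreated at 12 weeks it was 2, with 5 for total counts, 1 each for length offsets and DESeq2 with length offsets, and 4 each for p alone and limma on TPM. In treated livers over time it was 2, with 5 each for total counts and limma on TPM, 1 each for length offsets and for only the groups compared, and 0 with the mouse number as a replicate block. Leaving out single mice, this number ran from 3 to 5 and from 4 to 5 in Lipa-/- against WT at 12 and 34 weeks, from 0 to 3 in treated against WT at 12 weeks, from 2 to 3 and from 4 to 6 in treated against untreated, from 0 to 4 in treated livers over time, and from 0 to 1 for the difference between times in treated against WT. In the other comparisons it stayed at 0. The fit with this block was possible only between times and changed no other count of calls. Equal numbers at different times were different mice, so it paired none and cannot test the calls. The number of all genes called moved as well, from 6027 to 7612 with total counts and 6568 in TPM in treated against untreated livers at 12 weeks, from 3713 to 4046 and 3178 in treated against WT at 12 weeks, and from 4648 to 5689 and 5158 in treated livers over time. Total-count scaling and TPM leave out the TMM factors, which differed between groups. What made the factors differ was not tested. Abcb1a, Abcb1b and Abcc4 had as few as 3, 16 and 12 reads in a liver, which limits their precision.

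The values with the opposite sign follow in log2 units. Abcc3 in Lipa-/- against WT at 12 weeks, reported at 0.068, was at -0.16 to 0.49 without single mice. Abcc3 in Lipa-/- against WT at 34 weeks, reported at -0.73, was at 0.21 in TPM. Atp8b1 in Lipa-/- against WT at 34 weeks, reported at -0.41, was at 0.20 by total counts and 0.22 in TPM. Abcb1b in treated against WT at 12 weeks, reported at 0.24, was at -0.18 by total counts, -0.035 summed with Abcb1a and -0.071 to 0.44 without single mice. Abcb1b in treated against WT at 34 weeks, reported at 0.93, was at -0.49 summed with Abcb1a. Abcc2 in treated against WT at 34 weeks, reported at -0.077, was at -0.55 to 0.27 without single mice. Abcc6 in treated against WT at 34 weeks, reported at 0.011, was at -0.26 to 0.23 without single mice. Abcg2 in treated against WT at 34 weeks, reported at -0.17, was at 0.025 in TPM. Abcb4 in treated against untreated livers at 12 weeks, reported at 0.41, was at -0.45 by total counts and -0.56 in TPM. Abcc6 in treated against untreated livers at 12 weeks, reported at 0.20, was at -0.65 by total counts, -0.56 in TPM and -0.079 to 0.54 without single mice. Abcg2 in treated against untreated livers at 12 weeks, reported at 1.04, was at -0.16 in TPM. Atp8b1 in treated against untreated livers at 12 weeks, reported at 0.59, was at -0.27 by total counts and -0.45 in TPM. Abcc3 in treated against untreated livers at 34 weeks, reported at 0.018, was at -0.11 by upper quartiles, -0.53 by total counts, -0.23 with length offsets, -0.017 with only the groups compared, -0.27 by DESeq2 with length offsets, -0.78 in TPM and -0.13 to 0.16 without single mice. Abcb1b in WT over time, reported at -1.31, was at 0.61 summed with Abcb1a. Abcc2 in WT over time, reported at 0.29, was at -0.054 to 0.62 without single mice. Abcc6 in WT over time, reported at 0.047, was at -0.074 to 0.20 without single mice. Abcg2 in WT over time, reported at -0.17, was at 0.00060 in TPM. Abcb4 in Lipa-/- over time, reported at -0.062, was at 0.049 by upper quartiles, 0.26 by total counts, 0.0094 with only the groups compared, 0.40 in TPM, 0.10 with the replicate block and -0.17 to 0.15 without single mice. Abcc2 in Lipa-/- over time, reported at 0.14, was at -0.081 with length offsets, -0.054 by DESeq2 with length offsets and -0.12 with the replicate block. Abcc3 in Lipa-/- over time, reported at 0.0052, was at -0.00088 unfiltered, -0.26 with length offsets, -0.23 by DESeq2 with length offsets, -0.24 with the replicate block and -0.22 to 0.14 without single mice. Atp8b1 in Lipa-/- over time, reported at -0.052, was at 0.049 by upper quartiles, 0.24 by total counts, 0.016 with only the groups compared, 0.34 in TPM and -0.20 to 0.086 without single mice. Abcb1b in treated livers over time, reported at -0.61, was at 0.064 by total counts and 0.16 summed with Abcb1a. Abcc4 in treated livers over time, reported at -0.52, was at 0.12 by total counts and 0.18 in TPM. Abcg2 in treated livers over time, reported at -0.052, was at 0.023 by upper quartiles, 0.61 by total counts, 0.11 with length offsets, 0.050 by DESeq2 with length offsets, 1.07 in TPM, 0.051 with the replicate block and -0.22 to 0.21 without single mice. Atp8b1 in treated livers over time, reported at -0.017, was at 0.047 by upper quartiles, 0.61 by total counts, 0.018 unfiltered, 0.055 with length offsets, 0.85 in TPM and -0.16 to 0.22 without single mice. Abcb1b in the difference between times of Lipa-/- against WT, reported at 1.89, was at -0.0025 summed with Abcb1a. Abcc2 in the difference between times of Lipa-/- against WT, reported at -0.15, was at -0.47 to 0.20 without single mice. Abcc4 in the difference between times of Lipa-/- against WT, reported at -0.46, was at 0.094 in TPM and -0.80 to 0.16 without single mice. Abcb1a in the difference between times of treated against WT, reported at -0.39, was at 0.042 by total counts and -1.01 to 0.32 without single mice. Abcb1b in the difference between times of treated against WT, reported at 0.70, was at -0.11 with length offsets, -0.16 by DESeq2 with length offsets and -0.45 summed with Abcb1a. Abcb4 in the difference between times of treated against WT, reported at -0.13, was at 0.34 by total counts, 0.47 in TPM and -0.35 to 0.17 without single mice. Abcc3 in the difference between times of treated against WT, reported at 0.15, was at -0.39 with length offsets, -0.43 by DESeq2 with length offsets and -0.28 to 0.45 without single mice. Abcg2 in the difference between times of treated against WT, reported at 0.12, was at -0.052 to 0.41 without single mice.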
